A study of Mus musculus with 17 samples.

Results

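The oocyte linker histone gene H1f8 and the somatic linker histone genes H1f0, H1f2 and H1f4 were followed from the mouse oocyte to the blastocyst. The members were chosen by the platform's annotation, as every probe set assigned to 1 of these 4 genes. Of 12488 probe sets on the array, 3 met this rule, 1 each for H1f8, H1f2 and H1f4, and H1f0 was named by no probe set and was not analysed here. By gene, 3 of the 8251 genes named by a probe set with 1 symbol were members. The series held 17 Affymetrix MG-U74Av2 arrays of mouse oocytes (4 arrays), 1-cell embryos (3), 2-cell embryos (3), 8-cell embryos (4) and blastocysts (3), with total RNA taken through 2 rounds of in vitro transcription. The labels gave no strain, age, treatment or pool size, and did not say whether the arrays of a stage came from separate animals, so the p-values below rest on a spread that may be technical. The labels gave neither the maturation stage of the oocytes nor the priming of the amplification.

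Linker histones sit where DNA enters and leaves the nucleosome, and they help to pack nucleosome arrays into more compact chromatin. The oocyte carries its own form, H1f8 (older name H1foo), and in the mouse this form is known to give way to somatic linker histones as cleavage begins. H1f2 (Hist1h1c) and H1f4 (Hist1h1e) are abundant somatic forms of dividing cells, with genes in the main histone cluster, and H1f0 is a replacement form known from differentiated cells that have left the cell cycle. Transcripts of the clustered genes usually end in a stem-loop and carry no poly(A) tail, and the stem-loop binding protein encoded by Slbp acts in their processing.

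The stretches of 250 bases before the start of transcription are shown for the 3 measured members and for H1f1, a further clustered form whose signal is described below, because the promoters of clustered linker histone genes are known for a shared layout. Capitals mark AAACACA (the H1 box), CCAAT and TATAAA on either strand. Sequences are from RefSeq on GRCm38.p6, at chr6:115944681-115944930 on the plus strand for H1f8, chr13:23738557-23738806 on the plus strand for H1f2, chr13:23622559-23622808 on the minus strand for H1f4 and chr13:23763418-23763667 on the plus strand for H1f1.
H1f8: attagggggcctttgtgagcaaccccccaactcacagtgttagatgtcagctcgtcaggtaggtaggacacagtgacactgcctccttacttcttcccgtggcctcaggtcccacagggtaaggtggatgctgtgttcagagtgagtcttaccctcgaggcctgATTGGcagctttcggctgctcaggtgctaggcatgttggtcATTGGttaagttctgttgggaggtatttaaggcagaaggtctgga
H1f2: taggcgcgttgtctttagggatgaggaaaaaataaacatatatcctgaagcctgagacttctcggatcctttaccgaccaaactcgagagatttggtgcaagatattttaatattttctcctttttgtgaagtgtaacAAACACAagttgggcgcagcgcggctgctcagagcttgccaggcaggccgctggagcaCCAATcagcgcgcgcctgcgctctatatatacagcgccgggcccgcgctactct
H1f4: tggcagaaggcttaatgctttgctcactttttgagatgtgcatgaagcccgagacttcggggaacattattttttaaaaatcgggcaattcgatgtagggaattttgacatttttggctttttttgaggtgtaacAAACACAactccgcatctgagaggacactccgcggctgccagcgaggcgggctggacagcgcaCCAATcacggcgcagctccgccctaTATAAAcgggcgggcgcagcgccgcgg
H1f1: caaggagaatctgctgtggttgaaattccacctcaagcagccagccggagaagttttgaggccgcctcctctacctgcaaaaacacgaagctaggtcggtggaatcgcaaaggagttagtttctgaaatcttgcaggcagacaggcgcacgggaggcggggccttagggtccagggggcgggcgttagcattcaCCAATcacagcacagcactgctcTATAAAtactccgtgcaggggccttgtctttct
AAACACA stood 112 bases before the start in H1f2 and 115 bases before it in H1f4, counted at its first base. It had no match in the windows of H1f8 and H1f1, and 6.2% of 32851 such windows of mouse genes held it on either strand. CCAAT lay in the forward direction 54 bases before the start in H1f2, 52 in H1f4 and 56 in H1f1, whereas H1f8 held it in reverse (ATTGG), 86 and 45 bases before the start, against 33.8% of all windows. TATAAA was found in H1f4 and H1f1, and in 12.4% of all windows. These matches describe letters in a window, and a missing match says only that the letters are not there.

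The stages could be told apart on the arrays. Arrays of a stage correlated at 0.935 to 0.979 and at most 0.891 with an array of another stage. Summed signals of 6 oocyte markers were 26075 to 27450 on oocyte arrays, 15951 to 17867 on 1-cell arrays, 3751 to 4522 on 2-cell arrays, 302 to 488 on 8-cell arrays and 187 to 254 on blastocyst arrays. Those of 5 trophectoderm markers reached 6816 to 8570 on blastocyst arrays and stayed at or below 757 elsewhere, although Cdx2 lay below the filter on all arrays. The precision of every value is limited by the 3 or 4 arrays of a stage.

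H1f8 was bright in oocytes and 1-cell embryos, far dimmer in 2-cell embryos and near background by the blastocyst. All its values rest on 1 probe set, 1 of the array design's r_at sets, whose probe sequences were not checked here. Its signals, in the linear scaled units of the deposited table, were 4004, 5213, 4194 and 4958 on the oocyte arrays, 10752, 8345 and 6905 on the 1-cell arrays, 306, 258 and 370 on the 2-cell arrays, 76.4, 57.0, 51.9 and 47.2 on the 8-cell arrays and 9.10, 30.2 and 18.3 on the blastocyst arrays. No array of any stage overlapped in H1f8 signal with an array of another stage. The share of all probe sets that separate the stages in this way was not counted, so the separation cannot be read as particular to H1f8. All 10 pairs of stages were called by limma (adjusted p below 0.05), and the shares of all 8067 probe sets called are given beside the comparisons below. For pairs not taken up again the shares were 65.8% for 8-cell embryos against oocytes, 66.4% for 8-cell against 1-cell embryos and 67.6% for blastocysts against 1-cell embryos. The order of the stage means, from 8667 ± 1944 (SD, n = 3) in 1-cell embryos down through oocytes, 2-cell and 8-cell embryos to 19.2 ± 10.6 (n = 3) in blastocysts, had no neighbours that the fit left undistinguished at the deposited scaling. The blastocyst signals lay below 41.1, the median of all values on all arrays. The table held no detection calls, so H1f8 may be at background there, and folds against blastocysts depend on the offset of 11 that was added before taking log2.

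**Figure D1:**
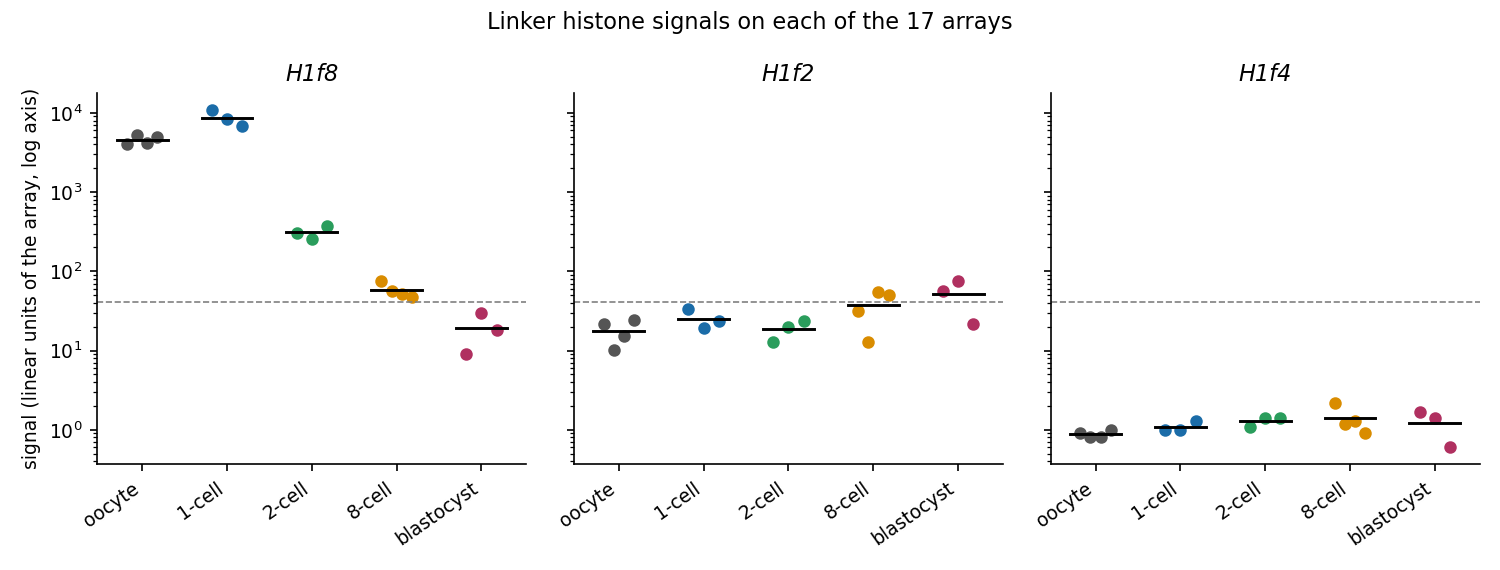
Signal of the H1f8, H1f2 and H1f4 probe sets (log axis, linear array units) on each of the 17 arrays by stage, with each dot an array, each bar a stage mean and the dashed line the filter at 41.1. H1f8 lay between 4004 and 10752 on oocyte and 1-cell arrays and at 30.2 or less on blastocyst arrays, whereas H1f4 lay at or below 2.20 throughout.

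The fall between the 1-cell and the 2-cell stage was the largest step in the H1f8 course. The signal was 312 ± 56.5 in 2-cell embryos and 8667 ± 1944 in 1-cell embryos (SD, n = 3 each), a 26.7-fold lower level with a 95% interval from 19.2-fold to 37.3-fold on the log2(signal + 11) scale (change -4.74 ± 0.23 SE, limma adjusted p = 4.01e-13). Among all 8067 probe sets that passed the filter on dim signals (above 41.1 on at least 3 arrays), of which 47.2% were called in this comparison and 21.2% were lower in 2-cell embryos, no other fell as far. The change of Rgs2, a gene taken up below, was -4.70, within the SE of that of H1f8. The fall of H1f8 was the largest too with quantile normalization, with median centring and with a scaling of the arrays on 9 probe sets of the hybridisation spikes (called the spike scaling below), and the second largest with array weights, without 1-cell array 1 and without 2-cell array 1. Set against oocytes, 2-cell embryos were 14.3-fold lower (change -3.84 ± 0.22, limma adjusted p = 4.69e-12, 49.1% of probe sets called).

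The decline went on through cleavage. The signal was 58.1 ± 12.8 in 8-cell embryos (n = 4) and 312 ± 56.5 in 2-cell embryos (n = 3), a change of -2.22 ± 0.22 (limma adjusted p = 1.56e-08), in a comparison that called 54.1% of probe sets. Blastocysts at 19.2 ± 10.6 (n = 3) lay below 8-cell embryos at 58.1 ± 12.8 (n = 4) by a smaller step of -1.24 ± 0.22 (limma adjusted p = 8.48e-05), in a comparison that called 42.5% of probe sets. This last step was not called with the spike scaling, at -0.37 (limma adjusted p = 0.293). That scaling moved the median change of all probe sets in this pair to 0.903. Relative to the median H1f8 changed by -1.27 with it and by -1.15 at the deposited scaling. Over the whole course, the signal in blastocysts was 158-fold lower than in oocytes (change -7.30 ± 0.22, limma adjusted p = 4.65e-17, 64.3% of probe sets called), with an interval from 116-fold to 216-fold that covers the spread of the arrays and not the choice of offset. This change was -7.82 with an offset of 2.75 and -6.20 with an offset of 44.

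H1f8 was higher in 1-cell embryos than in oocytes at the deposited scaling, and this call depended on how the arrays were scaled. The means were 8667 ± 1944 in 1-cell embryos (n = 3) and 4592 ± 584 in oocytes (n = 4), a rise of 0.90 ± 0.22 (1.87-fold, limma adjusted p = 0.00217), in a comparison that called 37.1% of all probe sets, and 17.3% of all as higher. With median centring the difference was 0.95, with quantile normalization it was 0.31 (adjusted p = 0.210), and with the spike scaling it was -0.23 (adjusted p = 0.512). The spike scaling moved the median change of all probe sets to -0.891, and relative to that median H1f8 was 0.66 higher in 1-cell embryos. The spikes themselves averaged 10.71 ± 0.60 in 1-cell embryos and 9.60 ± 0.22 in oocytes on the log2 scale (SD, n = 3 and 4). The 18S ribosomal RNA controls averaged 13.53 ± 0.21 in 1-cell embryos and 8.635 ± 0.31 in oocytes, and the part of either set in the H1f8 difference was not tested. Each array was scaled to the same mean, so RNA per embryo was not measured, and fewer cells with a transcript cannot be told apart from less of it per cell. Summed signals of 6 measured cumulus and granulosa markers were 138 to 226 in 1-cell embryos and 205 to 267 in oocytes, with Tnfaip6 and Amh below the filter on all arrays. Those of 6 sperm markers were 237 to 322 in 1-cell embryos and 234 to 324 in oocytes, with Prm1, Prm2 and Akap4 below it throughout. Those of 6 oviduct and uterus markers were 602 to 784 in 1-cell embryos and 451 to 538 in oocytes, and their part in the H1f8 difference was not tested.

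**Figure D2:**
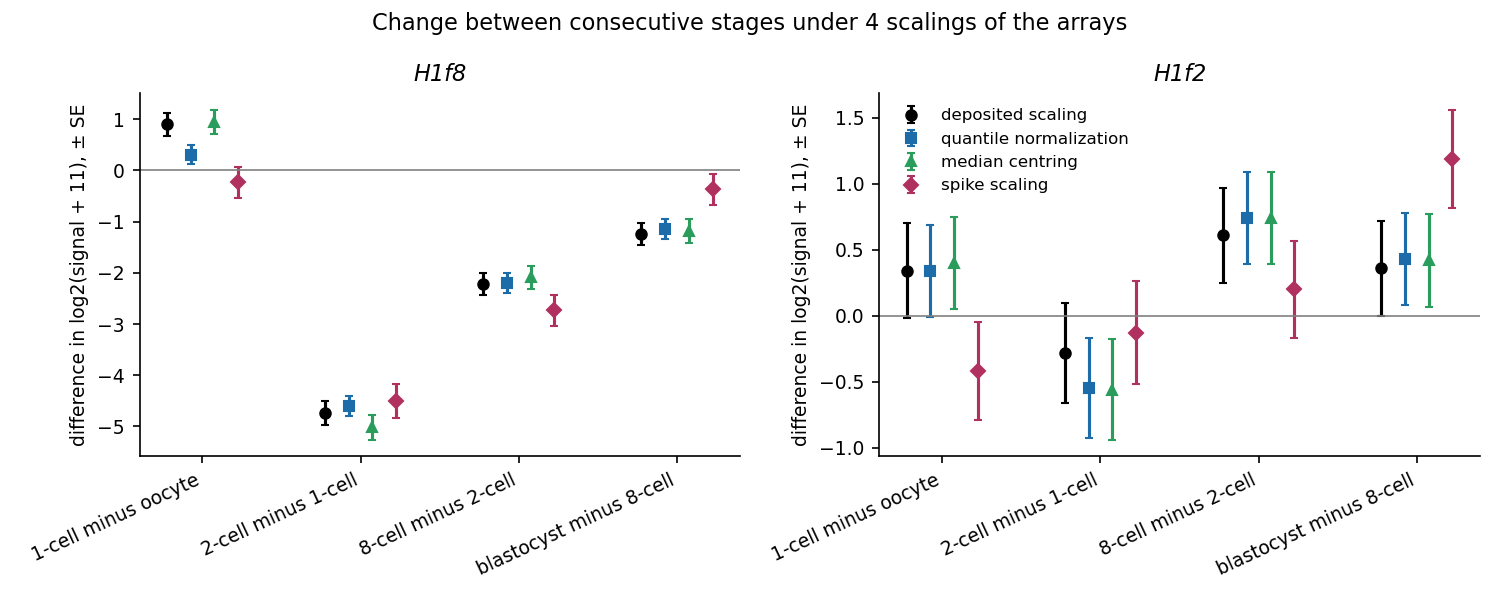
Difference in mean log2(signal + 11) between consecutive stages for H1f8 (left) and H1f2 (right), with SE bars, at the deposited scaling and under 3 other scalings of the arrays. The fall of H1f8 between 1-cell and 2-cell embryos stayed between -5.02 and -4.51 under these 4 scalings, while its difference between 1-cell embryos and oocytes ran from -0.23 to 0.95.

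Ratios between genes on the same array are free of any single factor per array, as in median centring and the spike scaling, but not of quantile normalization. H1f8 was therefore also read against other genes within each array, on the deposited signals and without an offset. Under quantile normalization the fitted difference between 1-cell embryos and oocytes was 0.31 for H1f8 and 1.20 for H1f1, against 0.90 for H1f8 and 1.13 for H1f1 at the deposited scaling. The partners were Zp3, a protein of the egg coat, Gdf9, an oocyte growth factor, Mos, the meiotic kinase, Slbp and H1f1. The log2 ratio of H1f8 to Zp3 averaged 2.67 ± 0.50 in 1-cell embryos and -0.655 ± 0.22 in oocytes (SD, n = 3 and 4), so H1f8 gained 10.03-fold on Zp3. It gained 3.45-fold on Mos and 1.34-fold on Gdf9, and it lost 1.36-fold to Slbp, each with no overlap of arrays between the stages. In these comparisons the exact permutation test gave p = 0.0571, the smallest it allows with 3 against 4 arrays (two-sided), so no such comparison can reach 0.05. Against H1f1 the arrays overlapped (log2 difference -0.29, exact p = 0.514).

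The mean ratio of H1f8 to each partner was lower in 2-cell than in 1-cell embryos. Its ratio to Zp3 was 11.6-fold lower, its ratio to H1f1 9.26-fold lower, its ratio to Slbp 4.42-fold lower and its ratio to Gdf9 4.24-fold lower, again with no overlap (exact permutation p = 0.1 each, the smallest possible with 3 against 3 arrays). The ratio to Mos was 1.60-fold lower with overlapping arrays (exact p = 0.2). Between 2-cell embryos and oocytes, the ratio to Zp3 was 1.16-fold lower in 2-cell embryos with overlapping arrays (exact p = 0.457), and the ratio to Mos was 2.16-fold higher. The ratio was 3.17-fold lower to Gdf9, 6.02-fold lower to Slbp and 11.3-fold lower to H1f1. These and the ratio to Mos showed no overlap (exact p = 0.0571 each). Of all 15 comparisons of ratios, whatever their direction, 12 showed no overlap, and the lowest p adjusted over the 15 was 0.107. How often ratios between other genes separate these stages was not counted, so the 12 cannot be read as particular to H1f8.

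**Figure D3:**
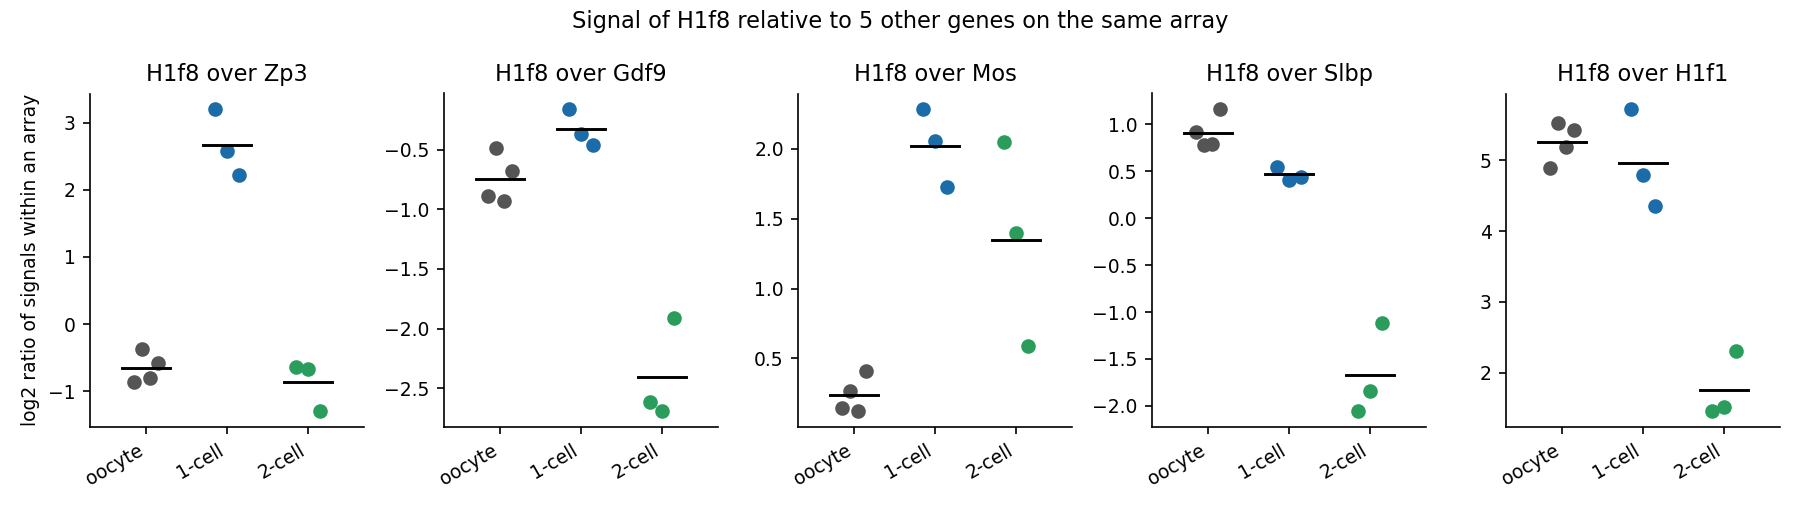
Log2 ratio of the H1f8 signal to that of Zp3, Gdf9, Mos, Slbp and H1f1 on the same array, with each dot an array and each bar a stage mean, for oocytes, 1-cell embryos and 2-cell embryos. The ratio to Zp3 averaged 2.67 in 1-cell embryos and -0.655 in oocytes, and the ratio to Slbp averaged -1.67 in 2-cell embryos and 0.47 in 1-cell embryos.

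H1f2 was dim at every stage. Its signals were 21.4, 10.3, 15.2 and 24.3 on the oocyte arrays, 33.5, 19.1 and 23.5 on the 1-cell arrays, 12.9, 20 and 23.8 on the 2-cell arrays, 31.3, 12.9, 54.3 and 50.9 on the 8-cell arrays and 56.7, 76.3 and 21.4 on the blastocyst arrays. The 4 signals above the filter of 41.1 came from 8-cell and blastocyst embryos, 2 arrays each, and the probe set entered the tests through them. The stages overlapped in every pair. Signals averaged 51.5 ± 27.8 in blastocysts (n = 3) and 17.8 ± 6.28 in oocytes (n = 4), a difference of 1.03 ± 0.36. Limma called it with the filter (adjusted p = 0.0154, 64.3% of probe sets called) and without it (adjusted p = 0.0254, 5515 of 12422 probe sets called). The filtered p depends on the arrays that let the probe set in, blastocyst arrays among them. This call ended without blastocyst array 1 (0.91, adjusted p = 0.0623) and without blastocyst array 2 (0.73, adjusted p = 0.114).

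Between consecutive stages no difference of H1f2 was called. The differences were 0.34 ± 0.36 for 1-cell embryos against oocytes (adjusted p = 0.498), -0.28 ± 0.38 for 2-cell against 1-cell embryos (0.584), 0.61 ± 0.36 for 8-cell against 2-cell embryos (0.162) and 0.36 ± 0.36 for blastocysts against 8-cell embryos (0.445), by limma. Their intervals were wide, with that of 8-cell against 2-cell embryos running from -0.13 to 1.35, so that changes of 2-fold could not be told from none. Without 8-cell array 2, at 12.9 the lowest of its stage, this step was called (0.91, adjusted p = 0.0280). On that array 6 markers of oviduct and uterus summed to 7619, against 456 to 1029 on the other 8-cell arrays, and their part in the H1f2 values was not tested. With the spike scaling the difference of 1-cell embryos from oocytes turned to -0.42 without a call, and the step to the blastocyst was called (1.19, limma adjusted p = 0.00492). In that step this scaling called 57.5% of all probe sets higher and 2.4% lower, and moved their median change to 0.903. Relative to that median H1f2 was 0.29 higher in blastocysts, against 0.45 at the deposited scaling. In the order of stage means, which ran from oocytes through 2-cell, 1-cell and 8-cell embryos up to blastocysts, no neighbours differed by the fit. Signals of 51.5 ± 27.8 in blastocysts and 18.9 ± 5.53 in 2-cell embryos (n = 3 each) differed by 0.96 ± 0.38, which limma did not call without the filter (adjusted p = 0.0520) and called with it (adjusted p = 0.0340, 59.7% of probe sets called), so this difference is not counted as a change.

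H1f4 gave no signal above the filter. Its values ran from 0.80 to 1.00 on the oocyte arrays, 1.00 to 1.30 on the 1-cell arrays, 1.1 to 1.4 on the 2-cell arrays, 0.90 to 2.20 on the 8-cell arrays and 0.60 to 1.70 on the blastocyst arrays. All 17 values lay below the offset of 11 and thus far below the filter, so H1f4 was not tested. On the log2(signal + 11) scale differences between values this small are close to 0 by construction, so a fit says nothing of H1f4. In the deposited units the 2-cell arrays averaged 1.3 ± 0.17 (n = 3) and the oocyte arrays 0.875 ± 0.0957 (n = 4), without overlap. Every other pair of stages overlapped. The share of all probe sets without overlap was not counted, so this pair is not read as a difference. A signal this low does not show that the transcript was absent.

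The other linker histones with a probe set were H1f1, H1f3, H1f5, H1f6 (a testis form) and H1f10, and of these 5 only H1f1 passed the filter. H1f1 signals were 135, 113, 115 and 115 on the oocyte arrays, 202, 299.7 and 337 on the 1-cell arrays, 112, 90.6 and 75.2 on the 2-cell arrays, 8.10 to 37.1 on the 8-cell arrays and 3.20 to 28.7 on the blastocyst arrays. Like H1f8 it was brightest at the 1-cell stage, with 280 ± 69.6 in 1-cell embryos (n = 3) and 120 ± 10.1 in oocytes (n = 4), a rise of 1.13 ± 0.32 (limma adjusted p = 0.00715) that the spike scaling reduced to 0.07 (adjusted p = 0.889). It then fell by 1.47 ± 0.34 between 1-cell and 2-cell embryos (limma adjusted p = 9.66e-04) and by 1.76 ± 0.32 between 2-cell and 8-cell embryos (6.30e-05). Against oocytes, 2-cell embryos differed in H1f1 by -0.35 ± 0.32 (limma adjusted p = 0.389), which was not called, and in H1f8 by -3.84 ± 0.22. The arrays overlapped for neither gene, but for H1f1 only narrowly, with 112.2 the highest 2-cell and 113.2 the lowest oocyte signal.

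H1f3, H1f5, H1f6 and H1f10 stayed dim. H1f3 reached at most 5.40 and H1f10 at most 19.3. H1f5 reached 57.1 on 8-cell array 1 and H1f6 57.0 on the same array, the only value of each above the filter. Fitted without the filter, H1f5 was higher in 8-cell than in 2-cell embryos by 1.13 ± 0.30 (limma adjusted p = 0.00532, 4546 of 12422 probe sets called). Its signals were 29.5 ± 20 in 8-cell embryos (n = 4) and 6.13 ± 2.54 in 2-cell embryos (n = 3). Limma also called H1f5 for 8-cell embryos against oocytes (1.16, adjusted p = 0.0017) and for blastocysts against 8-cell embryos (-1.06, 0.0112). It called H1f3 in the same pairs (0.30, adjusted p = 0.014, and -0.32, 0.0265). All H1f3 signals, and those of H1f5 in oocytes, 2-cell embryos and blastocysts, lay below the offset. These calls are therefore not read as changes. The coding sequences of the clustered forms are alike, so the signals of H1f1 to H1f6 are uncertain as measures of a single form.

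**Figure D4:**
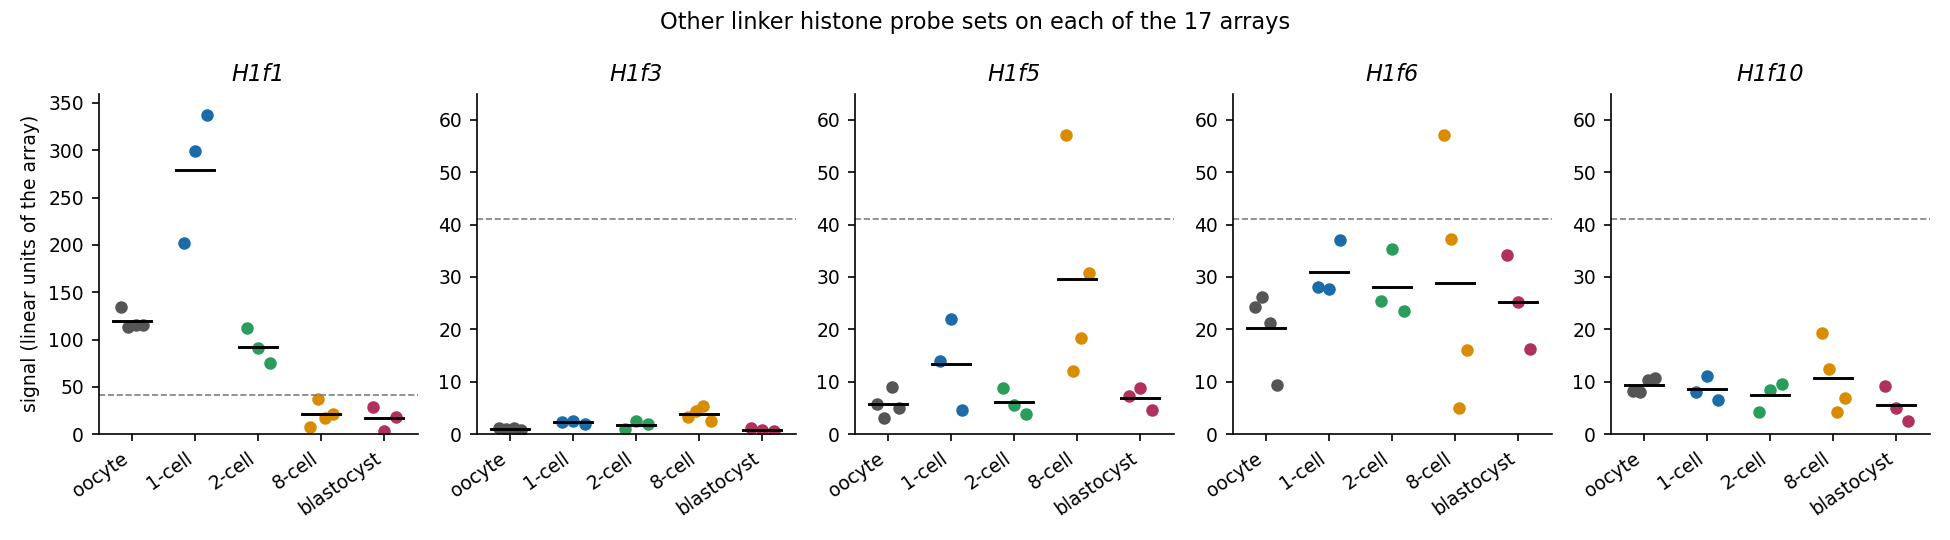
Signal (linear axis from 0, array units) of the H1f1, H1f3, H1f5, H1f6 and H1f10 probe sets on each of the 17 arrays, with each dot an array, each bar a stage mean and the dashed line the filter at 41.1 (the H1f1 axis reaches higher than the others). H1f1 peaked at 202 to 337 on 1-cell arrays, and H1f3 and H1f10 lay below the filter on all arrays.

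The genes whose course over the 17 arrays was most like that of H1f8, among 6041 other genes, were Rgs2, a regulator of G protein signalling (Pearson r = 0.996), Txnip, which binds thioredoxin (0.990), Nfya, a subunit of the CCAAT-binding factor NF-Y (0.986), Crabp2, a retinoic acid-binding protein (0.985), and Rassf5, a Ras-binding adaptor (0.984). These correlations are descriptions over arrays that share their stages and their scaling. Rgs2 had signals of 4226 ± 960 in oocytes, 6078 ± 927 in 1-cell embryos, 232 ± 83.6 in 2-cell embryos, 24.4 ± 10.7 in 8-cell embryos and 0.933 ± 0.351 in blastocysts. Nfya ran a shallower course, with a log2 change of -2.28 between 1-cell and 2-cell embryos where H1f8 had -4.74, and was still at 113 ± 16.6 in blastocysts. The genes with the most opposed course were Zfp42, a pluripotency factor (r = -0.987), Cbfb, the partner of the Runx factors (-0.986), and Elovl6, a fatty acid elongase (-0.984). For H1f2 the closest genes reached only 0.776 (Prpf4b, a splicing kinase), 0.773 (Csrp1), 0.765 (Lysmd2), 0.750 (Tbl1x) and 0.721 (Zmat3), and the most opposed were Prpsap2 (-0.761), Stau1 (-0.749) and Isg20 (-0.741). These are extremes picked from 6041 genes for a signal above the filter on only 4 arrays. Some were dim themselves, with stage means of 22.2 to 45.2 for Prpf4b and 5.23 to 57.4 for Lysmd2.

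**Figure D5:**
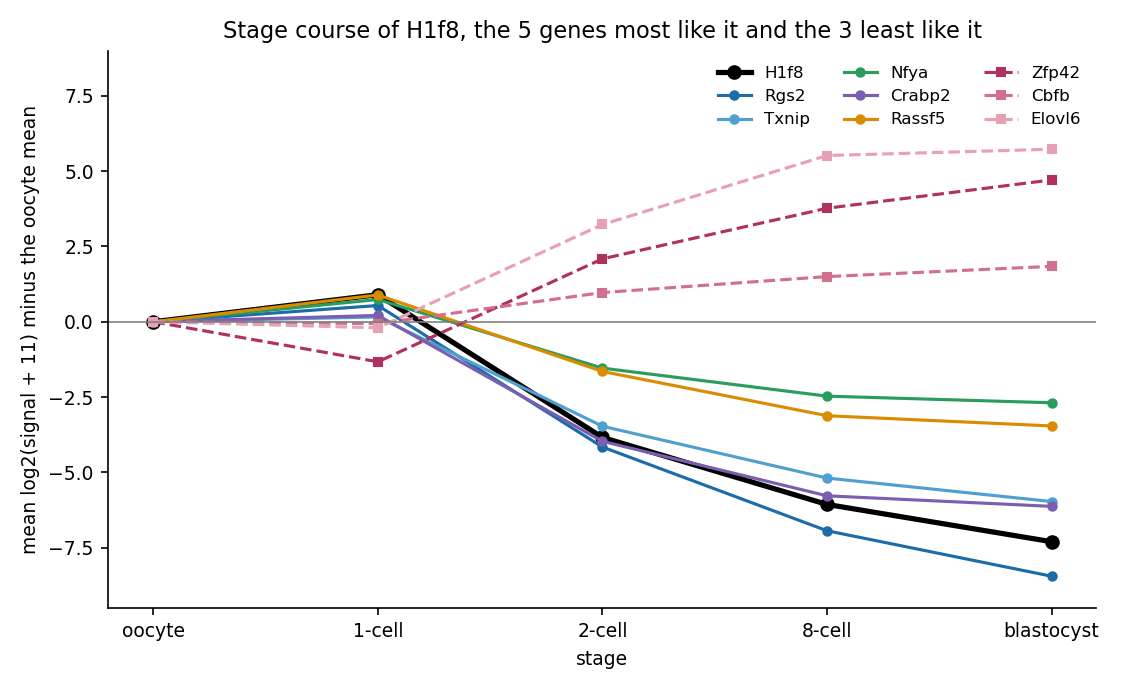
Mean log2(signal + 11) of each stage minus the oocyte mean for H1f8 (thick line), the 5 genes most like it (solid) and the 3 least like it (dashed). H1f8 ended 7.30 below its oocyte mean, between Rgs2 at -8.44 and Crabp2 at -6.13.

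Other genes of histone supply moved in both directions at the step where H1f8 fell most. Summed signals of 6 oviduct and uterus markers also differed at this step, at 1419 to 2010 in 2-cell and 602 to 784 in 1-cell embryos. Those of 4 blood markers were 429 to 506 in 2-cell and 178 to 315 in 1-cell embryos, with Ptprc below the filter on all arrays. The part of either in the changes of H1f8 and of the gene groups below was not tested. Slbp followed H1f8 in direction, with 1002 ± 246 in 2-cell and 6232 ± 1130 in 1-cell embryos (n = 3 each, change -2.63, limma adjusted p = 1.34e-10), after a rise of 1.34 between oocytes and 1-cell embryos that was not called with the spike scaling (0.21). Of 6 tested genes of histone mRNA processing and transcription, 3 were higher and 2 lower in 2-cell than in 1-cell embryos (median change 0.60, against 0.06 over all probe sets, of which 26.0% were higher and 21.2% lower), among them the cap-binding gene Ncbp1 (3.38) and the cyclin gene Ccne1 (3.04). This split moved to 2 higher and 2 lower with median centring, and to 2 and 1 with the spike scaling. The replacement variants H2az1 and H2az2 rose by 3.37 and 3.35, and the centromeric histone gene Cenpa fell by 1.84, so that of 5 core histone variants 2 were higher, 1 lower and 2 not called (median -0.22). Quantile normalization gave 2 of these variants as lower and median centring 3, with 2 higher under each. Macroh2a1, a variant of compact chromatin, rose later, by 3.31 between 8-cell embryos and blastocysts. Of 4 tested genes of replication-dependent core histones, the testis form H2bc1 fell by 2.25 and the others were not called (median -0.55). Quantile normalization gave 2 of the 4 as lower, with H3c14 at -0.85 (limma adjusted p = 0.0351), and median centring gave 3, with H3c14 at -1 (0.00718) and H2bc22 at -0.65 (0.0242), so the count of 1 depends on the scaling. The H2bc1 signal came from an f_at set of the array design, and those of H3c14 and H2bc22 from r_at sets. Their probe sequences were not checked here, so these signals are uncertain as measures of a single form. Probe sets that the annotation assigns to several genes were not used.

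Of 21 histone chaperone and nuclear import genes, 6 were higher in 2-cell than in 1-cell embryos, 9 were lower and 6 were not called (median -0.22). Median centring moved this split to 3 higher and 12 lower, with 20% of all probe sets higher and 30.2% lower. The spike scaling moved it to 3 and 3, with 23.7% of all higher and 11% lower. The import receptor gene Ipo7 (3.58) and the chaperone gene Set (2.70) rose, and Asf1a (-2.38) and Rbbp7 (-1.63), which carry histones H3 and H4, fell. Of 9 genes for HMG and other DNA-binding chromatin proteins, 5 were higher, 1 lower and 3 not called (median 1.01), led by Hmgn5, a nucleosome-binding protein that acts against linker histones (2.40). The 3 tested sperm chromatin genes had a median change of 0.08, with 0 called and limma adjusted p-values from 0.318 (Tnp2) to 0.808 (Tnp1). Of 14 oocyte and maternal genes, 11 were lower, 0 higher and 3 not called (median -1.18), where 21.2% of all probe sets were lower. With the spike scaling 7 were lower, where 11% of all were. Mos (-3.98), Dazl (-2.91) and Gdf9 (-2.70) fell most among them, each by less than H1f8 at -4.74.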

How the data were processed

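Per the labels, total RNA of 5 stages was amplified by 2 rounds of in vitro transcription and hybridised to Affymetrix MG-U74Av2 arrays, 1 sample per array. The authors deposited 1 signal intensity per probe set and array on a linear scale, without detection calls. In the deposited table the mean of the middle 96% of values was 150.1 on each array, which shows a scaling of arrays to 1 mean, but the software is not given in the sources used here. Such scaling removes differences in RNA content between stages. Median signals per array were 34.05 to 49.15.

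Log2(signal + 11) was analysed, with 11 the 25th percentile of all values. After 66 control probe sets were left out, 8067 probe sets (6042 genes) whose signal exceeded 41.1 (the overall median) on 3 or more arrays were fitted with limma 3.58.1 in R 4.3.3 (lmFit, and eBayes with an intensity trend), with a mean per stage over all 17 arrays. P-values were adjusted by Benjamini-Hochberg within a comparison and called below 0.05, and intervals are 95%. The code of the limma fit, and of no other step, was tested on simulated data with independent normal noise. Within-array ratios were compared by exact two-sided permutation tests (scipy 1.17.1). Figures were drawn with matplotlib 3.10.9.

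Probe sets were named from the platform annotation, with symbols updated by Entrez ID: 10855 had 1 symbol, 396 several and 1237 none. A gene with several probe sets was represented by the one with the highest mean signal. The text names the linker histones, the 5 most and 3 least similar genes by Pearson correlation over 17 arrays for H1f8 and H1f2, the genes read as within-array partners, and up to 4 called genes with the largest change from each of 8 lists (other linker histones, core histones, core histone variants, histone mRNA processing, chaperones and import, HMG and other DNA-binding proteins, sperm chromatin, oocyte and maternal genes). The lowest and highest adjusted p of the sperm list were named after their values were seen. The members and lists were chosen with earlier results of these data known. Alternatives covered the scaling, the offset, the filter, the intensity trend, array weights, a replicate block, fits of only the stages compared and each array left out.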

Additional observations from a re-analysis of the deposited data

Results flagged for a closer look

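In a Dixon test of the single-array signals of the named genes, 6 of 130 groups of 4 arrays held an array far from the others, and chance gives about 1 in 20. None of the 6 was a group of H1f8, H1f2 or H1f4. H1f1 had 134.7 on 1 oocyte array, against a group median of 115.35. Of the genes that ran with or against the members, Crabp2 had 1219.3 on 1 oocyte array (median 840.15), Nfya 115.7 on 1 8-cell array (median 138.15) and Isg20 226.8 on 1 8-cell array (median 34.8). Of the listed genes, H2az1 had 583.4 on 1 oocyte array (median 348.5) and Bmp15, an oocyte growth factor, 842.8 on 1 oocyte array (median 1284.9).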

How the results depend on the processing

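The falls of H1f8 between consecutive stages up to the 8-cell stage, and from oocyte to blastocyst, stayed called in the same direction under the 11 alternatives run besides leaving out arrays. With the spike scaling, H1f8 differed by -0.23 between 1-cell embryos and oocytes and by -0.37 between blastocysts and 8-cell embryos, neither called, H1f2 by -0.42 and by 1.19 (called) in the same pairs, and H1f1 by 0.07 and 0.44, neither called. The count of probe sets called between 1-cell embryos and oocytes moved from 2994 (1397 higher, 1597 lower) to 4668 (30 higher, 4638 lower) with it. The median change of all probe sets under the spike scaling was -0.891 in that pair and 0.903 between blastocysts and 8-cell embryos. With quantile normalization the H1f8 difference between 1-cell embryos and oocytes was 0.31 and not called. The cause was not tested. Leaving out 1 array at a time, H1f8 ranged from 0.73 to 1.05 for 1-cell embryos against oocytes, -4.89 to -4.57 for 2-cell against 1-cell, -2.35 to -2.10 for 8-cell against 2-cell, -1.49 to -0.98 for blastocyst against 8-cell and -7.56 to -7.04 for blastocyst against oocyte, all called. H1f2 ranged in the same order from 0.19 to 0.47, -0.41 to -0.13, 0.43 to 0.91, 0.05 to 0.77 and 0.73 to 1.44, with the losses and gains of a call given above. H1f1 ranged from -0.56 to 0.18 for blastocyst against 8-cell, positive without blastocyst array 2 and negative otherwise. With the stricter filter H1f2 was not among the 4717 probe sets tested. The labels number the arrays of each stage, but same-numbered arrays did not deviate together: over 31 pairs r ranged from -0.084 to 0.125, and 2 exceeded 0.1. With the replicate number as a block H1f8 differed by 0.88, -4.74, -2.21, -1.26 and -7.32 and H1f2 by 0.47, -0.28, 0.48, 0.49 and 1.16, and no call of either changed. Signals near or below 41.1, such as H1f2 and H1f8 in blastocysts, depend most on the offset and on probe background.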
